A study of Mus musculus with 4 samples.

Results

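The cytosolic ribosomal protein genes encode the protein components of the ribosomes that translate nuclear-encoded mRNAs. They were taken as the protein-coding genes of the mouse mm9 annotation (GENCODE M1) whose symbol is Rpl or Rps followed by a number, together with Rplp0, Rplp1, Rplp2 and Rpsa, leaving out the ribosomal S6 kinases and pseudogenes. The rule found 85 genes among 22380 protein-coding genes. Of these, 31 encode proteins of the small (40S) subunit, 45 encode proteins of the large (60S) subunit, and 9 are others that the symbol rule also takes in. The last set holds 8 paralogs (Rpl3l, Rpl7l1, Rpl10l, Rpl22l1, Rpl36al, Rpl39l, Rps27l and Rps4y2) and Rps19bp1, which encodes a binding protein of RPS19 rather than a ribosomal protein.

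The study mapped RIF1 on chromatin by immunoprecipitation against an HA tag followed by sequencing (ChIP-seq) in primary mouse splenic B cells, which were activated with LPS (5 µg/ml) and IL-4 (5 ng/ml) and collected at 72 h. The 2 Rif1FH samples came from Rif1FH/FH mice, which carry a Flag-HA tag on RIF1 made from its own locus. By the paper's methods, that line was also kept on a C57BL/6 background. The 2 Rif1WT samples came from C57BL/6 mice with untagged RIF1 (Rif1WT/WT) and served as the background control of the antibody. The labels give no age or number of mice, and the label for the antibody names CD43 beads, which the protocol uses to isolate the B cells. The data analysed here are a single list of 16332 genomic intervals that the authors kept because they were found in both Rif1FH replicates. The list holds positions only, so there is no height, no read count, no depth and no value per sample, no test between samples could be made, and neither the Rif1WT background nor the identity of the cells could be checked in it. Every statement below is therefore about where listed intervals lie, and a gene without one was not listed, which does not show that RIF1 was absent from it.

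Ribosomal protein genes are short, are transcribed at high rates in most dividing cells, and many carry small nucleolar RNAs (snoRNAs) in their introns. Their mRNAs typically begin with a C followed by a run of pyrimidines (the 5′ terminal oligopyrimidine tract), through which translation is tied to mTOR signalling. RIF1 is a chromatin protein known for control of replication timing and of DNA double-strand break repair, the latter in activated B cells during class switch recombination. 

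The intervals came in 2 size classes that do not overlap. There were 16043 narrow intervals, the widest of 14827 bp, called peaks here, and 289 wide intervals, the narrowest of 90000 bp, which are the authors' RIF1-associated domains. By their procedure a peak inside a domain was not counted as a peak. A ribosomal protein gene inside a wide interval thus had no chance of a separate peak, and the classes are read apart. A gene counted as having a peak at its 5′ end when a peak overlapped the 2 kb centred on the first base of the gene by at least 1 bp, and as lying in a wide interval when a wide interval overlapped the gene or that window.

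A peak lay at the 5′ end of 42 of the 85 ribosomal protein genes (49.4%, 95% Wilson interval 39.0 to 59.8%), where 31.8% of all protein-coding genes had one. Peaks over the gene or at the 5′ end were counted for the same 42 genes, against 37.3% of protein-coding genes. No ribosomal protein gene had a peak in its body alone, while 1223 of 22380 protein-coding genes did. The ribosomal protein genes had a median length of 3243 bp, against 15420.5 bp, so less of the gene lay beyond the 5′ window. Another 29 ribosomal protein genes (34.1%, interval 24.9 to 44.7%) lay in a wide interval, against 22.6% of protein-coding genes. No ribosomal protein gene had both, and only 54 of all 22380 protein-coding genes did. The other 14 (16.5%) met neither, against 40.5% of protein-coding genes. Among the 56 ribosomal protein genes outside wide intervals, 42 had a peak at the 5′ end (75%, interval 62.3 to 84.5%), where the same share of protein-coding genes outside wide intervals was 40.8%. The intervals treat genes as independent draws and carry no replicate error, and the lists were not compared by a test.

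**Figure D1:**
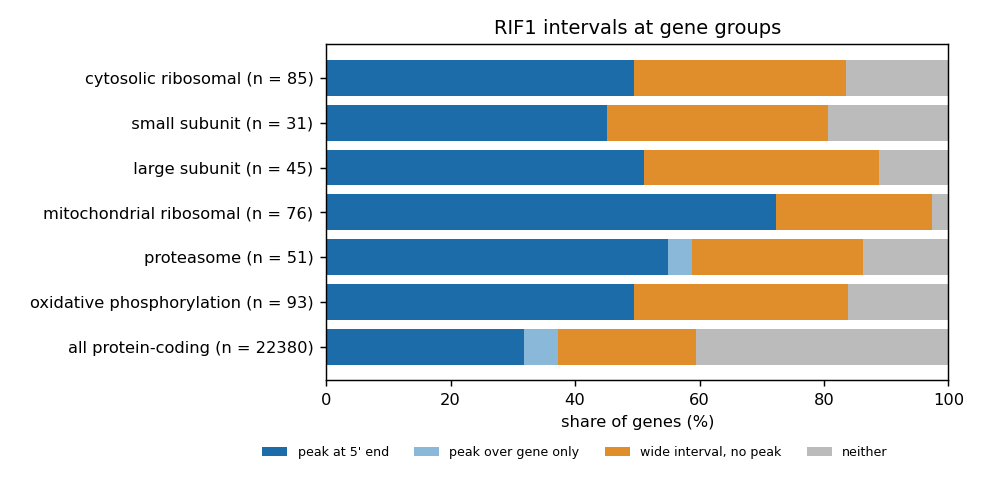
Share of genes (x axis, %) with a RIF1 peak at the 5′ end, with a peak over the gene body only, in a wide interval without a peak, or with neither, for each gene group (y axis, n genes). The 85 cytosolic ribosomal protein genes show 42 with a peak at the 5′ end and 14 with neither, and no gene of this group has a peak in the body only.

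The 42 genes with a peak at the 5′ end held 14 small subunit genes, 23 large subunit genes and 5 paralogs. Those of the small subunit included Rps3, Rps3a, Rps6, Rps7, Rps12, Rps13, Rps20, Rps21, Rps23, Rps24, Rps27, Rps27a and Rps29. Those of the large subunit were Rplp1, Rpl5, Rpl6, Rpl7, Rpl7a, Rpl9, Rpl10, Rpl10a, Rpl13, Rpl14, Rpl15, Rpl17, Rpl22, Rpl23a, Rpl24, Rpl27a, Rpl30, Rpl31, Rpl32, Rpl35, Rpl36, Rpl37 and Rpl37a. The paralogs were Rpl7l1, Rpl22l1, Rpl36al, Rps27l and Rps4y2. Genes of wide intervals comprised 11 of the small subunit (among them Rps9, Rps10, Rps15, Rps16, Rps18, Rps19, Rps25, Rps26 and Rps28), 17 of the large subunit (among them Rplp0, Rplp2, Rpl3, Rpl8, Rpl11, Rpl12, Rpl13a, Rpl18, Rpl19, Rpl21, Rpl23, Rpl26, Rpl28, Rpl29, Rpl34 and Rpl38) and Rps19bp1. Neither was listed at 6 genes of the small subunit (among them Rpsa, Rps2, Rps4x, Rps14 and Rps15a), 5 of the large subunit (Rpl4, Rpl27, Rpl35a, Rpl36a and Rpl39) and the paralogs Rpl3l, Rpl10l and Rpl39l. Both subunits were thus found in all 3 classes: outside wide intervals, 14 of 20 small subunit genes (70.0%) and 23 of 28 large subunit genes (82.1%) had a peak at the 5′ end.

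Promoters from each class are given so that the sequence under a peak can be set beside that of genes without one: the genes with the widest and the narrowest peak, Rps6, 2 genes in wide intervals, and the 2 genes with the longest distance to any peak. Each runs 5′ to 3′ over 150 bases before and 20 bases from the RefSeq transcription start (RefSeq, GRCm38.p6), and the coordinates are those of its exact match in mm9. Capitals mark the last 20 bases, which begin at the start site, and any match to a searched motif further upstream.
Rpl37a (chr1:72757684-72757853, plus strand, widest peak): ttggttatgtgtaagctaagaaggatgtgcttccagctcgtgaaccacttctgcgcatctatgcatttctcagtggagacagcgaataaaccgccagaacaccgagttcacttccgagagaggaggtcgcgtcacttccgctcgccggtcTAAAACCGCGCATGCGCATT
Rps27 (chr3:90017551-90017720, minus strand, narrowest peak): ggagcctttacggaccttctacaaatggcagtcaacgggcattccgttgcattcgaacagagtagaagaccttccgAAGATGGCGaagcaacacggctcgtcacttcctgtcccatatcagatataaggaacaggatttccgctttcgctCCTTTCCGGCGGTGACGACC
Rps6 (chr4:86503252-86503421, minus strand, peak): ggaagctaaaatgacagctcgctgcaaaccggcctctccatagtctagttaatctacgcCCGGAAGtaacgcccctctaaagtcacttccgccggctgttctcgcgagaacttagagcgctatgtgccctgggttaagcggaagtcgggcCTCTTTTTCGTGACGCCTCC
Rplp0 (chr5:116009326-116009495, plus strand, wide interval): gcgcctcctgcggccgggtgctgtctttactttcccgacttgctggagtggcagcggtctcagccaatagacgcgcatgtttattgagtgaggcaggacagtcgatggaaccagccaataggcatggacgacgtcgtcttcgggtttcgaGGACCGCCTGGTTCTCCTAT
Rpl11 (chr4:135609289-135609458, minus strand, wide interval): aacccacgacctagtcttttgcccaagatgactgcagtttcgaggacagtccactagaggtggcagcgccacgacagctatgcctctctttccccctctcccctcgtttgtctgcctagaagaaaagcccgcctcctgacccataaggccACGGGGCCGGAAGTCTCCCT
Rpl36a (chrX:131120043-131120212, plus strand, neither): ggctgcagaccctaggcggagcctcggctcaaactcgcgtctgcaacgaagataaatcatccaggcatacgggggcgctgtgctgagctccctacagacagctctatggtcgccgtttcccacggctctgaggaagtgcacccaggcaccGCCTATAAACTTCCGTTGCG
Rpl10l (chr12:67385369-67385538, minus strand, neither): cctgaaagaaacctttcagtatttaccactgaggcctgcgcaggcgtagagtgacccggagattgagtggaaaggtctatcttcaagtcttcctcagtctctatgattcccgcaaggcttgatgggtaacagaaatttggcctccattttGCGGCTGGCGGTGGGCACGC
The stretch of Rps6 holds CCGGAAG, the core of an ETS-family site, 91 bases before the start, and that of Rpl11 holds the same letters just after its start. The Rps27 stretch holds a match to AANATGGCG, the core of a YY1 site. That of Rpl36a, a gene with neither interval, holds TATAAA, also a searched motif, just after its start. Rps27 and Rps6 start with a C and a run of pyrimidines, as the class of oligopyrimidine mRNAs does, whereas the RefSeq starts printed for Rpl37a, Rplp0, Rpl11, Rpl36a and Rpl10l do not.

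The median width of peaks at ribosomal protein genes was close to that of all peaks at 5′ ends. Each of the 42 genes had its own peak, and the median width was 1646 bp (quartiles 1288 and 2167.5 bp), against 1585.5 bp for the 6332 peaks at 5′ ends of protein-coding genes and 1365 bp for all 16043 peaks. Under 1 kb were 7 of the 42 peaks, 22 were from 1 kb to below 2 kb, and 13 were 2 kb or more. The widest lay at Rpl37a, a zinc-binding protein gene of the large subunit, and ran for 4152 bp (chr1:72755922-72760073), which exceeds the 2550 bp of the gene itself and is wider than 97.8% of all peaks. Next came Rps12 with 2862 bp (chr10:23506050-23508911) and Rps27a, which encodes ubiquitin fused to a small subunit protein, with 2676 bp (chr11:29447274-29449949). The narrowest lay at Rps27 and covered 409 bp (chr3:90017361-90017769), followed by Rpl13 with 747 bp (chr8:125625933-125626679) and Rpl6 with 748 bp (chr5:121654529-121655276). Width is not an amount of RIF1, and the list gives no height. At 8 of the 42 genes the peak was at least as long as the gene.

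The midpoints of the peaks lay upstream and downstream of the 5′ end in equal number. The median midpoint lay 4.25 bp upstream of the annotated 5′ end (-4.25 bp, quartiles -189.5 and 180.5 bp), with 21 midpoints upstream and 21 downstream. For all 7125 protein-coding genes with such a peak, the median was 42 bp downstream and 54.5% of midpoints were downstream. Midpoints within 250 bp of the 5′ end were found at 26 of the 42 ribosomal protein genes (61.9%), against 46.2% of protein-coding genes with a peak. The peak covered the first base of the gene at 39 of the 42 (92.9%), against 86.8%. The exceptions were Rpl10 and Rpl6, whose peaks ended or began 39 bp from it, and Rpl31, with a gap of 30 bp.

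The peaks farthest upstream were those of Rps3a (midpoint -880.5 bp, chr3:85946385-85948624) and Rpl14 (-816 bp). Farthest downstream were those of Rpl35 (899 bp), whose protein sits at the exit of the nascent peptide tunnel, and Rpl10a (732.5 bp). The annotated 5′ end matters for such values, since the Rpl35 midpoint lay 406 bp from the RefSeq start. Rpl7 alone had a second peak in its window, so that 1309 bp over the 5′ end (chr1:16093904-16095212) and 1233 bp centred 1492 bp upstream of it (-1492 bp, chr1:16095619-16096851) were both listed.

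**Figure D2:**
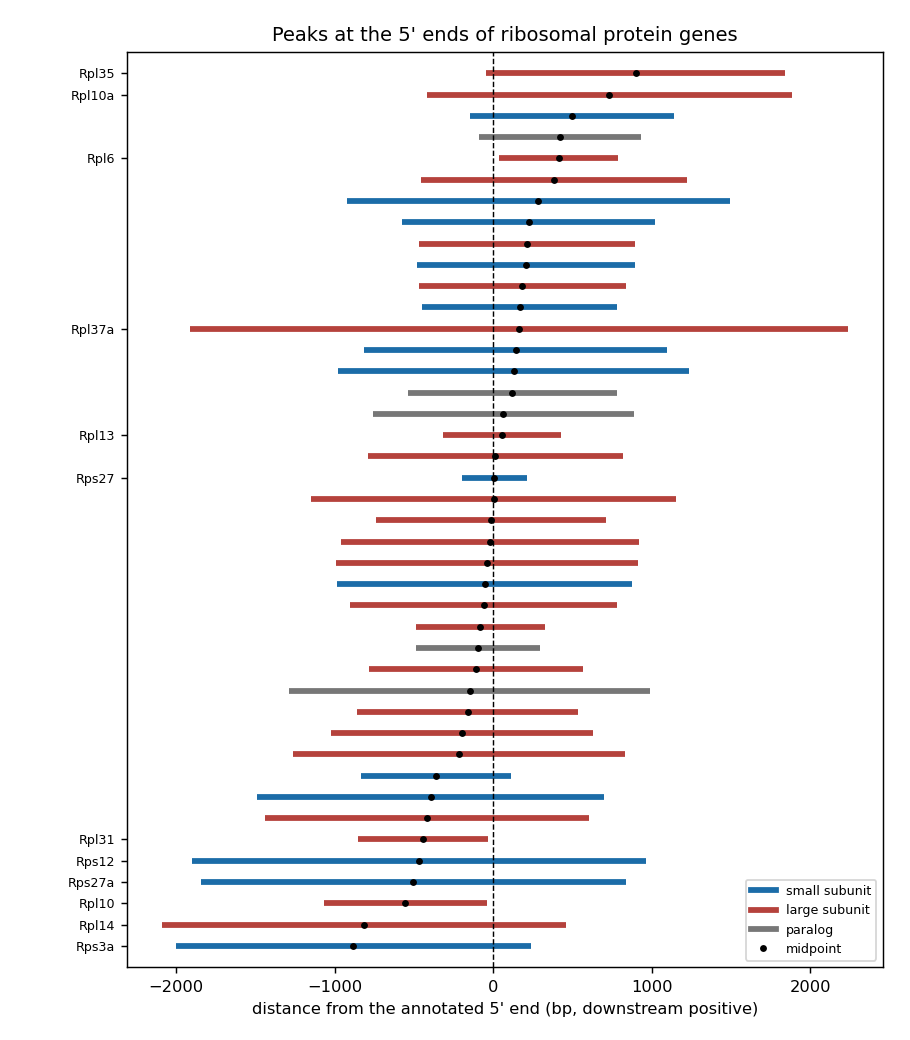
Extent of the peak at the 5′ end of each of 42 ribosomal protein genes (y axis), in bp from the annotated 5′ end with downstream positive (x axis), with bars coloured by subunit and points at the midpoints. Genes are named where the peak is among the widest or narrowest, has its midpoint farthest from the 5′ end, or does not cross it. The bars of 39 genes cross the 5′ end, that of Rpl37a is the widest at 4152 bp, and 21 midpoints lie on each side.

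Some of these peaks could not be given to the ribosomal protein gene alone. At 7 of the 42 genes (16.7%, against 22.1% of protein-coding genes with a peak) the peak also lay within 1 kb of the 5′ end of another protein-coding gene: Rpl7 with Rdh10, Rpl7a with Med22, Rpl9 with Lias, Rpl15 with Nkiras1, Rpl36al with Mgat2, Rps27 with Rab13, and Rps27a with 1700034F02Rik. These include both the narrowest peak and one of the 3 widest.

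The 3 genes of the P stalk, the flexible arm of the large subunit that recruits the elongation GTPases, were split between the classes. Rplp1 had a peak of 1451 bp centred 11 bp upstream of its 5′ end (-11 bp, chr9:61761631-61763081). Rplp0 and Rplp2, whose products form the base of the stalk and the partner of RPLP1 in it, lay in wide intervals of 1144 kb (chr5:114876001-116020000) and 774 kb (chr7:147996001-148770000). Rplp0 was the ribosomal protein gene nearest to an edge of its wide interval, at 10.5 kb. RPL5 and RPL11 join 5S rRNA in the particle that also binds MDM2, the ubiquitin ligase of p53, and their genes were split as well. Rpl5 had a peak of 1391 bp (chr5:108328665-108330055), and Rpl11 lay in a wide interval of 3600 kb, 270.7 kb from its nearer edge.

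Among ribosomal proteins made as fusions with ubiquitin or a ubiquitin-like protein, Rps27a had the peak described above. Fau, whose symbol keeps it out of the 85, lay in a wide interval of 1246 kb. Gnb2l1, which encodes the small subunit scaffold RACK1 and is not among the 85 either, lay in a wide interval of 340 kb. Rps6, the small subunit protein phosphorylated by the S6 kinases, had a peak of 2208 bp over its 5′ end (chr4:86502084-86504291).

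The paralogs fell on both sides where they could be set beside the gene they resemble. Rpl22 and its paralog Rpl22l1 both had a peak (2298 and 1641 bp), as did Rpl7 and Rpl7l1 (1309 and 778 bp) and Rps27 and Rps27l (409 and 1314 bp). Rpl10 on chromosome X had a peak of 1031 bp, while Rpl10l, its intronless autosomal paralog known for expression in the testis, was 1111 kb from the nearest peak. Rpl3 lay in a wide interval, and Rpl3l, the paralog known from striated muscle, had its nearest peak at 8.41 kb. Rpl36a had neither and Rpl36al had a peak of 2274 bp, which it shared with the 5′ end of Mgat2. Rpl39, on chromosome X, and Rpl39l had neither, with the nearest peak 24.2 kb and 22.2 kb away. Rps4x had neither and Rps4y2, a gene without introns on chromosome 6, had a peak of 1021 bp. Whether any of these genes is transcribed in these cells is not given by the list.

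Most of the 14 genes with neither class of interval had a peak within 35 kb. The nearest peak was within 10 kb of 3 genes (Rpl35a at 5.40 kb, Rpl27 at 5.50 kb and Rpl3l at 8.41 kb) and 10 to 35 kb away for 8. Among the latter were Rpsa at 16.6 kb, Rps2 at 18.1 kb and Rps14, a gene of the small subunit platform, at 26.4 kb. The remaining 3 were Rpl4, which lines the peptide exit tunnel, at 81.0 kb, Rpl36a at 100.6 kb and Rpl10l at 1111 kb. No gene of the 14 had a peak within 5 kb of its 5′ end, and the peaks of the 42 covered theirs or came within 39 bp of it. The count of 42 was the same with windows from 0.1 to 5 kb on each side, over which the share of all protein-coding genes ran from 28.6% to 34.8%.

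Wide intervals placed ribosomal protein genes among many other genes. The 29 genes lay in 24 of the 289 wide intervals, and 4 of these held more than 1 ribosomal protein gene (9 genes together). Rpl13a and Rpl18 were in 1 that spanned 1800 kb on chromosome 7 (chr7:51426001-53226000) and met 108 protein-coding genes in all. Rpl19 and Rpl23 shared 1360 kb (chr11:96580001-97940000), Rpl3 and Rps19bp1 shared 2618 kb (chr15:78040001-80658000), and Rps18 and Rps28 shared 4842 kb with 212 protein-coding genes (chr17:31626001-36468000). The 24 intervals had a median width of 1092 kb, against 576 kb for all 289 wide intervals. These medians are not like for like, because picking intervals that hold a given gene favours wide ones. Intervals that hold other genes were not measured. Rps18, a protein gene of the small subunit head, lay deepest at 2375 kb from the nearer edge.

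By chromosome, 14 of the 85 genes were on chromosome 7, of which 9 lay in wide intervals, 4 had a peak (among them Rpl27a, Rps3 and Rps13) and Rps15a had neither. Of all 2072 protein-coding genes on that chromosome, 37.2% lay in a wide interval and 18.1% had a peak at the 5′ end. All 3 genes on chromosome 1 (Rpl7, Rpl31 and Rpl37a) had a peak. Of 4 genes on chromosome X, Rpl10 had a peak and Rpl36a, Rpl39 and Rps4x had neither. No protein-coding gene on chromosome X lay in a wide interval, and 24.6% of the 932 there had a peak at the 5′ end.

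**Figure D3:**
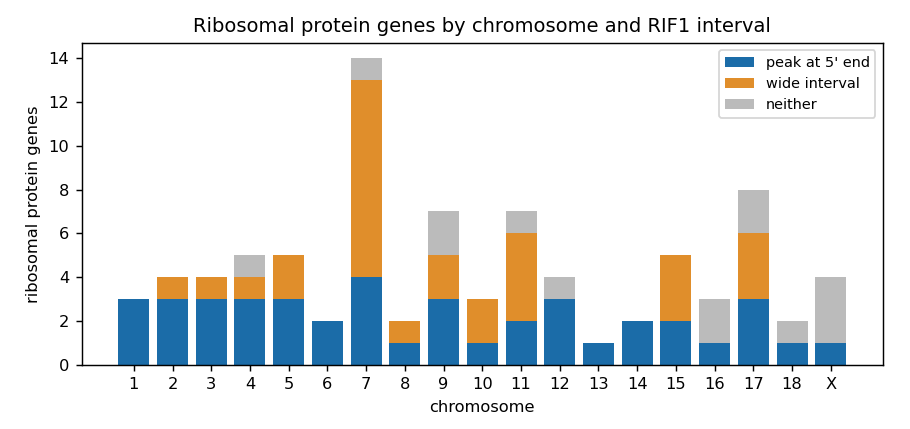
Number of ribosomal protein genes (y axis) on each chromosome that holds any (x axis), coloured by whether a peak lay at the 5′ end, the gene lay in a wide interval, or neither. Chromosome 7 holds 14 genes, 9 of them in wide intervals, and 3 of the 4 genes on chromosome X have neither.

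The ribosomal protein genes were shorter and richer in CpG at their 5′ ends than the median gene. Their median length was 3243 bp, against 15420.5 bp for all protein-coding genes, and 83 of the 85 were shorter than that. The GC content of the 2 kb window had a median of 52.4%, against 51.1%, and its CpG ratio (observed over expected) a median of 0.686, against 0.468. By class, the median GC content was 52.6% with a peak, 53.1% in a wide interval and 49.7% with neither, and the CpG ratio 0.700, 0.662 and 0.609. Among genes outside wide intervals, the share with a peak was then read in 3 bins of window GC content that divide all protein-coding genes evenly. In the lowest (up to 47.78%), 4 of 7 ribosomal protein genes had a peak, against 14.1% of protein-coding genes. In the middle, 25 of 36 did, against 52.4%, and in the highest (above 54.27%) 13 of 13 did, against 61.3%. No bins were made by CpG ratio, so these shares do not account for the difference in it. Transcription of these genes in the same cells was not analysed here, and its part in the counts was not tested.

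Ribosomal protein genes have many processed copies in the genome, and the authors kept reads that align at 1 place only, so the sequence that such reads can reach was measured. In the windows at the 5′ ends, the median share of 50-base words found once in the genome was 95.6%, with a lowest value of 78.4% at Rpl37a, against a median of 100% for all protein-coding genes. By class the medians were 95.7% with a peak, 95.2% in a wide interval and 97.2% with neither, the highest of the 3 for the genes with neither. The copies showed in the exons, where the median was 76.4%, 14 genes were below 50% and Rps27 was at 0%. In introns the median was 100%. All 4 genes with exons below 10% (Rps27, Rps12, Rpl36 and Rps23) had a peak, as did 8 of the 14 below 50%, the other 6 lying in wide intervals. Over all 85 genes the share with a peak was 49.4%, and exons of other protein-coding genes were not measured. Rps27, with no exon word found once and 91.3% of window words found once, was also the gene with the narrowest peak, and Rpl37a, with the least unique window, had the widest. The part of copies in these classes and in the width of single peaks was not tested.

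**Figure D4:**
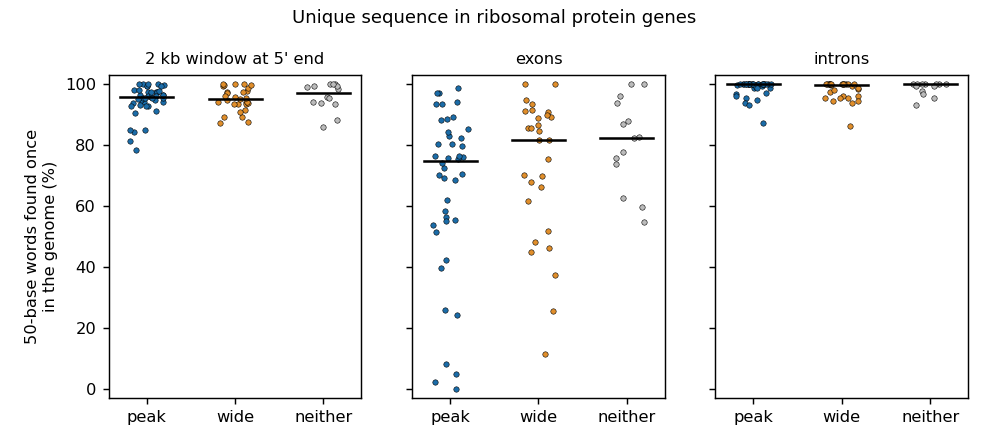
Share of 50-base words found once in the mm9 genome (y axis, %) in the 2 kb window at the 5′ end, the exons and the introns of each ribosomal protein gene that has such sequence (points), by class (x axis: peak at the 5′ end, wide interval, neither), with bars at the medians. Windows have medians of 95.7%, 95.2% and 97.2%, while exons spread down to 0%.

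Genes that carry snoRNAs in their introns were found in all 3 classes. Of the 30 ribosomal protein genes with 58 snoRNA genes inside them, 16 had a peak and 9 lay in a wide interval. Of the 55 without, 26 had a peak and 20 lay in a wide interval. Among the 239 other protein-coding genes with a snoRNA, 113 (47.3%) had a peak at the 5′ end. Rpl4, with 5 snoRNAs the richest host among the 85, had neither interval, while Rpl7a, with 4, had a peak and Rpl13a, with 4, lay in a wide interval.

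Promoter sequences were found for 63 of the 85 genes, with 75 start sites, in the RefSeq table, which gives 250 bases before and 50 after each start, and motifs were searched on both strands in these and in 18191 promoters of protein-coding genes. The ETS core CCGGAAG was in 33.3% of ribosomal protein promoters, against 11.6% of all. AANATGGCG was in 13.3%, against 3.23%. These were 10 of 75 start sites but only 7 genes, since start sites of the same gene can overlap and recount a motif. The GC box GGGCGG was in 60.0%, against 47.9%, and TATAAA in 9.33%, against 12.1%. A start with C and at least 4 pyrimidines was found in 17.3%, against 2.24%. By class, an ETS core was in the promoter of 10 of 29 genes with a peak, 10 of 22 in wide intervals and 4 of 12 with neither. The pyrimidine start was found at 6 of 29, 5 of 22 and 2 of 12. Both features were thus present in every class. The share of genes with a start C and pyrimidines depends on the base that RefSeq gives as the start, and these letters are not bound sites. The genes not matched included Rpl3, Rpl7, Rpl8, Rpl17, Rpl21, Rpl23a, Rpl29, Rpl30, Rpl32, Rpl36, Rplp1, Rps3a, Rps4y2, Rps14, Rps20, Rps27a and Rps29.

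Other gene groups of the translation machinery and of highly used housekeeping complexes were counted the same way. Of 76 mitochondrial ribosomal protein genes, whose products form the separate ribosome of that organelle, 55 had a peak at the 5′ end and 19 lay in a wide interval, leaving 2 with neither. Outside wide intervals the share with a peak was 96.5% for these genes, against 75% for the cytosolic ribosomal protein genes. Proteasome genes had a peak in 28 of 51 and a wide interval in 14, and genes of oxidative phosphorylation in 46 and 32 of 93, so that outside wide intervals 75.7% and 75.4% had a peak. For the initiation factor eIF3 the counts were 8 with a peak and 5 in wide intervals of 13. For a list of elongation factors and genes named after them, 4 of 11 annotated genes had a peak (Eef1b2, Eef1e1, Eef2k and Eif5a2). Another 5 of the 11 lay in wide intervals. The list holds Eef2k, the kinase of eEF2, as 2 annotated genes, 1 of them with a peak and 1 with neither. Of 10 other genes known for oligopyrimidine mRNAs, 5 had a peak (Eif4b, Hnrnpa1, Npm1, Tpt1 and Vim) and 5 lay in wide intervals (Eef1a1, Eef2, Gnb2l1, Nap1l1 and Pabpc1). The cytosolic ribosomal protein genes thus lay above the share of all protein-coding genes and beside the proteasome and oxidative phosphorylation genes, and no test of these differences was made.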

How the data were processed

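RIF1 ChIP-seq was done by the authors in 2 Rif1FH and 2 Rif1WT samples. Per their methods and processing notes, reads were trimmed (Trim Galore 0.6.4), aligned to mm9 at unique places only (Bowtie 1.0.0), peaks were called per replicate (MACS2 2.2.6, narrow and broad) and domains with EDD, and intervals found in both Rif1FH replicates were merged (bedtools 2.27.1). The deposited values are interval positions (chromosome, start, end), pooled over replicates, without score or depth, so error between replicates could not be computed. Positions are given from 1.

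Intervals were divided at 50 kb and overlapped (at least 1 bp) with GENCODE M1 genes and with the 2 kb centred on each gene's first base (Python 3.11.15, numpy 2.4.6), with Wilson 95% intervals from scipy 1.17.1. Unique 50-base words were counted over both strands of the genome. Overlap and word counting were tested on simulated data. Members and gene lists were chosen with earlier results of these data known. Genes were named by class, apart from some that are not reported here, with values for the extreme peaks, the genes with neither interval and the role lists (stalk, 5S particle, ubiquitin fusions, paralogs). Windows, 5′ ends, overlap rules, width, merging, membership and word length were varied.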

Additional observations from a re-analysis of the deposited data

How the results depend on the processing

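Over 77 comparisons of 7 results with an alternative, 71 moved by less than the 95% interval of the value and 6 by more. Windows of 0.1 to 5 kb, the 5′ end of any transcript, the peak midpoint rule, merging of peaks under 1 kb apart and the canonical genes alone gave no moved value. Keeping only peaks at or above the median width of all peaks left 27 of 85 ribosomal protein genes with a peak at the 5′ end (31.8%, against 20.2% of protein-coding genes), the same 31.8% with a peak over the gene or at the 5′ end (against 24.3%), and 48.2% outside wide intervals (against 26.0%), with a median width of 1911 bp. Fewer and wider peaks follow from that choice itself. The median unique share of the 5′ windows was 93.3% with words of 36 bases and 98.6% with 75 bases. The midpoint rule was not run for wide intervals.

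After the data were seen, the RefSeq start, autosomes only, genes with no other coding 5′ end within 5 kb and windows at least 80% unique were added. None moved a value of the ribosomal protein genes beyond its interval, but the share of all protein-coding genes also changed. With windows at least 80% unique, 74.55% of ribosomal protein genes outside wide intervals had a peak. The share of protein-coding genes was then 44.9%, against 40.8% in the main count. The share outside wide intervals was 78.8% on autosomes (against 41.7% of protein-coding genes), where the median midpoint was 2.50 bp downstream. At the RefSeq start, which could be placed for 63 of the 85 genes only, it was 70.7% (29 of 41 genes). The share of protein-coding genes was 45.3% there, against 40.8% in the main count. The same 63 genes classed by the annotated 5′ end gave the same counts, 29 with a peak, 22 in wide intervals and 12 with neither.

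No paired analysis was possible because no sample has values of its own in the deposited intervals. Leaving out a replicate was not possible for the same reason. The intervals carry no depth, so a gene without one is not shown to be free of RIF1, and they carry no background from Rif1WT.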

Other observations

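Genes that act upstream of ribosome assembly were counted by the same rule. Of 14 genes of RNA polymerase I and its factors, which make the precursor of ribosomal RNA, 9 had a peak at the 5′ end (64.3%, against 31.8% of all protein-coding genes), 2 lay in a wide interval and 3 had neither. Those with a peak included Ubtf, the architectural factor of ribosomal DNA, with 1167 bp, and Rrn3, which brings the polymerase to it, with 2938 bp. Polr1a, the gene of the largest polymerase I subunit, had neither, with its nearest peak 77078 bp away. Of 23 genes of small nucleolar ribonucleoproteins and nucleolar assembly factors, 15 had a peak (65.2%), 4 lay in a wide interval and 4 had neither. Outside wide intervals the shares with a peak were 75% and 78.9% for these lists, against 75% for the cytosolic ribosomal protein genes and 40.8% for all protein-coding genes. Nop56 and Nop58, core proteins of the box C/D particles, had peaks of 3171 and 1648 bp, while Fbl, the methyltransferase of the same particles, lay in a wide interval of 2364 kb, the one that also holds Rps16. These lists were not compared with others by a test.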
